A study of Rattus norvegicus with 18 samples.

Results

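The 10 genes described here belong to the integrated stress response of the rat 9L glioma model: Atf3, Atf4, and 8 genes that ATF4 is known to drive, namely Ddit3, Trib3, Chac1, Ppp1r15a, Atf5, Asns, Psat1 and Phgdh. They were taken as every probe set whose only gene symbol in the platform annotation was a member's. This gave 11 probe sets of the 27363 on the array, or 10 of the 14324 genes that had a probe set of their own. Each gene had 1 probe set except Psat1, which had 2, and the brighter Psat1 probe set stands for the gene below. The set was put together because Atf3 was already known to be higher in the hypoxic regions of these tumours, so the tumour values are given as a description without a test. The members were chosen by that hypoxic minus normoxic tumour difference of Atf3 and by their known link to ATF4.

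The series holds 18 Affymetrix Rat Gene 1.0 ST arrays in 6 groups of 3. The tumours were 9L gliosarcomas in male Fischer 344 rats, which were 6 weeks old when the founding tumours were inoculated. Pieces of passage 5 or 6 tumours were grown on the epigastric vessels. From each of 3 tumours, laser capture microdissection took 1 sample positive for EF5 (hypoxic) and 1 negative for it (normoxic). EF5 is a nitroimidazole that forms adducts in poorly oxygenated cells. The cultures were 9L cells kept for 6 h or 16 h at about 20% oxygen (normoxic) or 0.2% oxygen (hypoxic), which makes 4 groups of 3 cultures. The labels name no engineered allele and, apart from EF5, no drug. All samples came from 1 cell line, the captured tumour tissue can also hold host cells, and 2 ng of RNA was amplified for every array. The labels number the tumours 1, 2 and 3, the 6 h cultures 6, 13 and 26, and the 16 h cultures 22, 28 and 29.

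The integrated stress response begins when kinases that sense amino acid shortage, misfolded protein in the endoplasmic reticulum, viral RNA or haem deficiency phosphorylate the translation factor eIF2. Most protein synthesis then slows, while the mRNA of the transcription factor ATF4 is translated more, so that ATF4 protein can increase with little change of its mRNA. ATF4 switches on genes for amino acid synthesis and transport and, with its partner CHOP (the product of Ddit3), genes that end the response or lead to cell death. Severe hypoxia is a known trigger through the kinase PERK. ATF3, a transcription factor of the same family, is an ATF4 target, but it also answers to p53, MAP kinase and inflammatory signals.

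Promoter sequences were available for 9 of the 10 members. The missing member is Atf3, whose promoter was therefore not searched for any of the elements below. The ATF4 response element core TGATGNAA, searched on both strands in the 250 bases before each start site, was present in 2 of these 9 (Trib3 and Chac1) and in 2.91% of all 18999 rat promoters. The cyclic AMP response element TGACGTCA, to which proteins of the ATF and CREB family bind, was present in 1 of the 9 (Ppp1r15a) and in 2.03% of all promoters. These 3 stretches are shown, 5′ to 3′ on the gene's strand, because they contain the letters through which the family is known to act, and the capitals mark the match. They come from RefSeq, build GRCr8: Trib3 at chr3:161275534-161275584 (minus strand), Chac1 at chr3:126795934-126796001 (plus strand) and Ppp1r15a at chr1:105139625-105139692 (minus strand).
Trib3: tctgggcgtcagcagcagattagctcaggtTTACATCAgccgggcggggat
Chac1: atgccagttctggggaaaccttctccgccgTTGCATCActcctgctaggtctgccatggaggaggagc
Ppp1r15a: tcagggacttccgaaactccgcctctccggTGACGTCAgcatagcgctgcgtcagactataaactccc
The matches began 21 bases before the start of Trib3, 167 before that of Chac1 and 66 before that of Ppp1r15a. Trib3 and Chac1 carry the element as its reverse complement. The AP-1 letters TGANTCA were present in 3 of the 9 (Ddit3, Phgdh and Atf5) and in 5.82% of all promoters. The hypoxia response core was searched in both of its forms: ACGTG was present in 3 of the 9 and 17.6% of all promoters, and GCGTG in 9 of the 9 and 31.7%. A match is a string of letters, not a measured binding site.

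The values are the authors' log2 signals. Correlations between arrays of a group ran from 0.94 to 0.96 in the tumours and from 0.99 to 1.00 in the cultures, and array medians from 6.02 to 6.19 in the cultures and from 6.36 upward in the tumours. All 5 genes chosen to check the labels, which are well known to rise with hypoxia, were higher in the hypoxic group of the tumours (median log2 difference 1.90), the 6 h cultures (1.60) and the 16 h cultures (1.53). Of the 9 glial and neural stem cell markers measured, Vim, Cd44 and Sox2 lay above the array median on every array, while Gfap, S100b and Olig1 lay below it on every array. The mean level of 16 macrophage markers was 7.66 to 8.87 in the tumour regions and 5.45 to 5.62 in the cultures.

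Atf3 had the largest hypoxic minus normoxic tumour difference of the members, which is the difference for which the set was put together. In the normoxic regions of tumours 1, 2 and 3 its log2 level was 5.65, 5.55 and 5.96, below the array median of each. In the hypoxic regions it was 7.77, 7.65 and 8.96. The groups did not overlap, and the hypoxic region was the higher in all 3 tumours, by 2.12, 2.10 and 3.01. The mean difference was 2.41 ± 0.25 (SE from limma, n = 3 tumours), a 5.31-fold higher signal. Of the 14324 genes 2 had a larger increase. Like every SE given here, this one is moderated: it draws on the spread of all probe sets. The 3 differences themselves had an SD of 0.52. The normoxic values were close to those of macrophage genes in the cultures of 9L cells, such as C1qa (group means 5.71 to 5.89) and Tyrobp (5.63 to 6.01), so Atf3 was not shown to be above background there and its fold may be understated. Atf3 was the only member whose tumour groups did not overlap in the higher direction, and none did in the lower direction. Over all probe sets 11.8% were higher without overlap and 4.62% were lower, so 1 of the 10 members was near the share of all features. Across the tumour comparison limma called 0 of the 27363 probe sets (0%) after Benjamini-Hochberg adjustment, the smallest adjusted p being 0.106, and 2496 had an unadjusted p below 0.05.

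**Figure D1:**
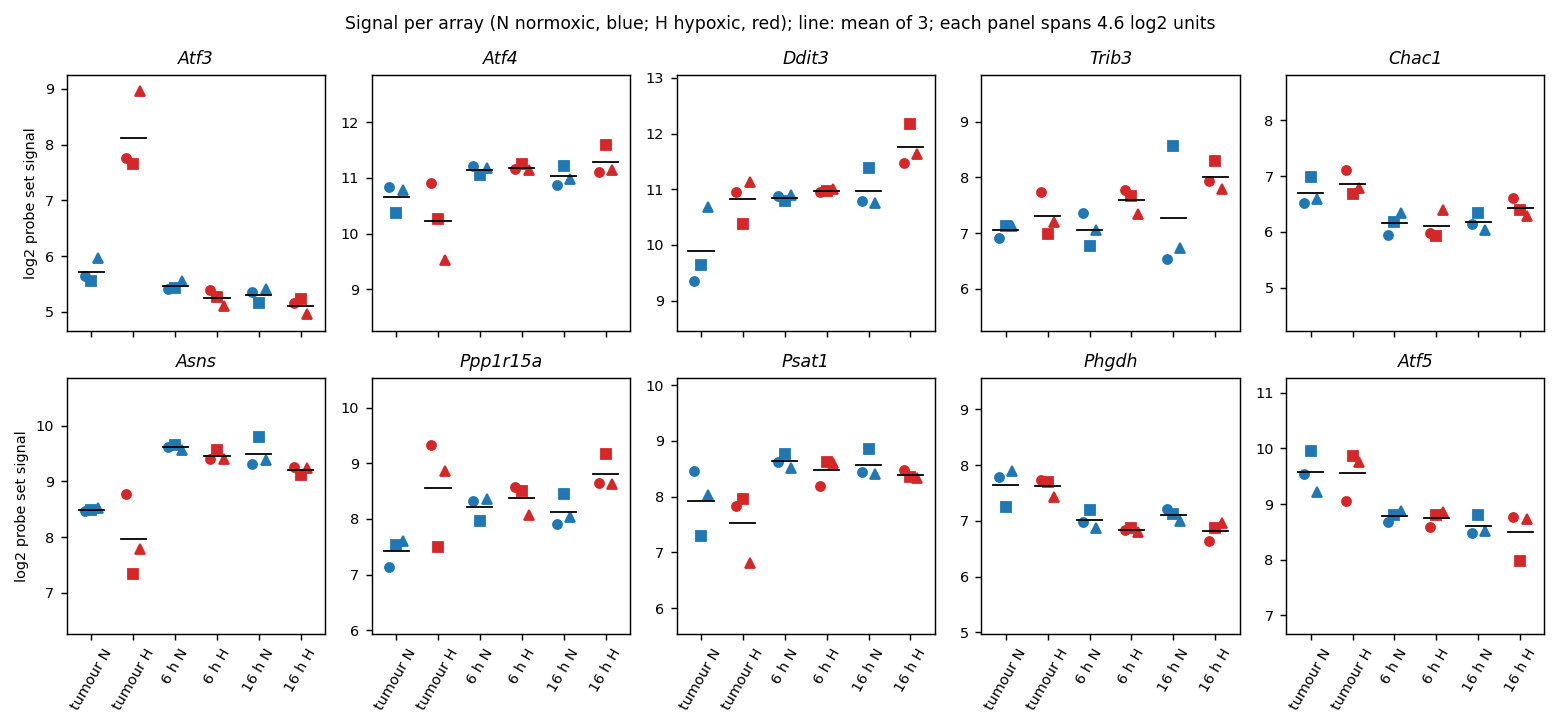
Log2 signal of each of the 10 members (panels) in every array, by group (horizontal axis); points are arrays and bars are group means. Atf3 is near 5 to 6 in all groups except the hypoxic tumour regions, where it lies between 7.65 and 8.96.

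Atf4 mRNA was not higher in the hypoxic tumour regions. Its log2 level was 10.84, 10.37 and 10.78 in the normoxic and 10.90, 10.27 and 9.53 in the hypoxic samples of tumours 1, 2 and 3. The groups overlapped, and the mean difference of −0.43 ± 0.30 (SE) came mostly from tumour 3, where the hypoxic region was lower by 1.26. Since these arrays measure mRNA, they do not show how much ATF4 protein was made.

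Among the targets linked to the stress outcome, Ddit3 and Ppp1r15a had the larger tumour differences. Ddit3, the gene of CHOP, was at 9.35, 9.64 and 10.69 in the normoxic and 10.95, 10.37 and 11.13 in the hypoxic regions. It was higher in the hypoxic region of every tumour, by 1.60, 0.73 and 0.44, although the groups overlapped, and its mean difference was 0.92 ± 0.27 (SE). Ppp1r15a encodes GADD34, which brings a phosphatase to eIF2 and so ends the response. Its level was 7.15, 7.53 and 7.61 in the normoxic and 9.32, 7.50 and 8.86 in the hypoxic regions. The increase was seen in tumours 1 and 3 (2.18 and 1.25) and not in tumour 2 (−0.03), with a mean of 1.13 ± 0.40 (SE). These means were exceeded by 94 genes for Ddit3 and 52 for Ppp1r15a.

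The other stress targets differed little. Trib3, a pseudokinase that dampens ATF4 and CHOP, was at 6.92, 7.12 and 7.12 in the normoxic and 7.74, 6.98 and 7.21 in the hypoxic regions, a mean difference of 0.26 ± 0.24 (SE). The hypoxic region was higher in tumours 1 and 3, by 0.82 and 0.09, and lower in tumour 2, by 0.14. Chac1, which degrades glutathione, differed by 0.60, −0.31 and 0.19 in the 3 tumours, with a mean of 0.16 ± 0.23 (SE). Atf5, a transcription factor of the mitochondrial stress response, was lower in tumours 1 and 2 (−0.49 and −0.09) and higher in tumour 3 (0.54).

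The 3 amino acid enzymes did not share the direction of Atf3. Asns, which makes asparagine, was at 8.47, 8.48 and 8.52 in the normoxic regions, which agreed to within 0.1, and at 8.77, 7.33 and 7.79 in the hypoxic regions. The hypoxic region was lower in tumours 2 and 3 by 1.15 and 0.73 and higher in tumour 1 by 0.29, for a mean of −0.53 ± 0.30 (SE). Psat1 and Phgdh act in serine synthesis. Psat1 differed by −0.62, 0.67 and −1.22 in tumours 1, 2 and 3, and Phgdh by −0.06, 0.45 and −0.48. Both were higher in the hypoxic region of tumour 2 and lower in the other two.

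The gap between Atf3 and its fellow targets was taken as the Atf3 difference minus the median difference of the 8 targets. It was 1.68, 2.15 and 2.87 in tumours 1, 2 and 3, with a mean of 2.23 ± 0.60 (SD, n = 3). In tumour 1 the Ppp1r15a difference (2.18) was larger than that of Atf3 (2.12), whereas in tumours 2 and 3 the highest target (0.73 and 1.25) lay well below it. Against the 5 stress targets alone the mean gap was 2.02 ± 0.65 (SD), and against the 3 amino acid enzymes alone 2.52 ± 1.08 (SD). In the cultures the same gap was 0.01, −0.14 and −0.47 at 6 h (mean −0.20 ± 0.25, SD, n = 3) and −0.57, 0.32 and −0.69 at 16 h (mean −0.31 ± 0.55, SD, n = 3). No culture pair reached the lowest tumour value. Atf3 was not shown to be above background in the cultures, so the culture gaps cannot be read as a decrease of Atf3.

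**Figure D2:**
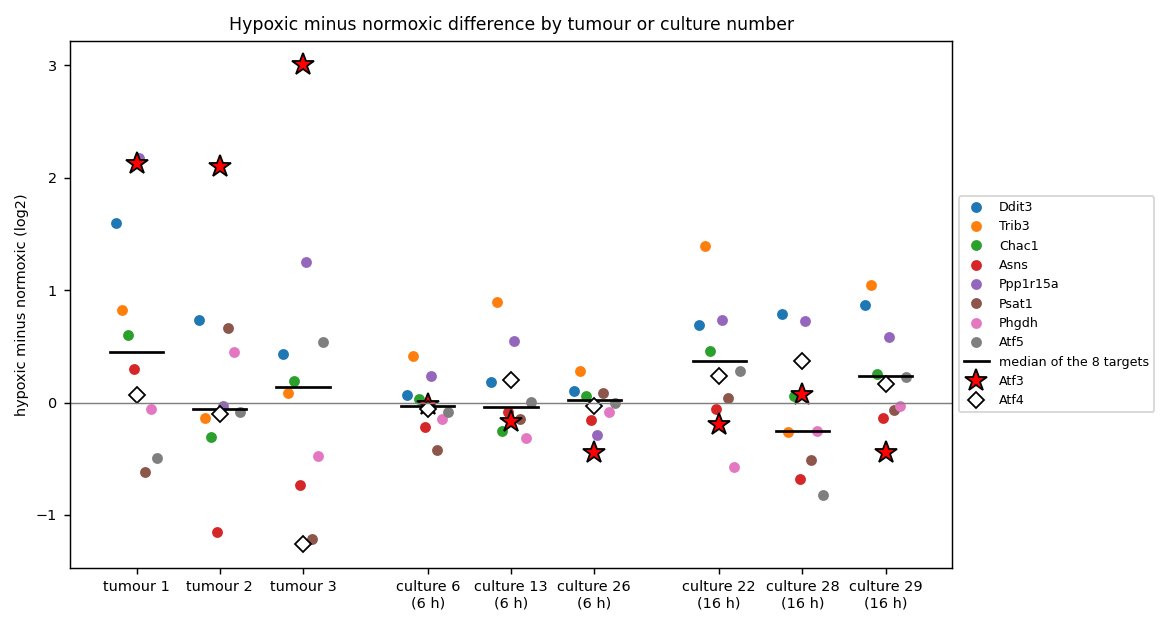
Hypoxic minus normoxic log2 difference of each member (vertical axis) in each tumour and each pair of cultures with the same number; stars mark Atf3, diamonds Atf4, dots the 8 targets and bars their median. Atf3 lies at 2.10 to 3.01 in the tumours and at or below 0.06 in the cultures, while the targets scatter on both sides of 0.

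Markers of host cells differed between the tumour regions as well. The mean log2 level of 16 macrophage markers was 8.30, 8.47 and 8.87 in the normoxic and 7.86, 8.29 and 7.66 in the hypoxic samples of tumours 1, 2 and 3, and 13 of the 16 were lower on average in the hypoxic regions (10 of 16 without tumour 3). For 10 markers of T and NK cells it was 6.72, 6.59 and 7.98 against 6.06, 6.40 and 6.24, with 9 of 10 lower. Neutrophil markers were at 5.61, 5.68 and 5.51 in the normoxic and 5.73, 5.68 and 6.04 in the hypoxic regions, with 9 of 10 higher beside 64.8% of all probe sets. Median differences were 0.18 for these 10 neutrophil, 0.09 for 6 endothelial, 0.21 for 9 pericyte and smooth muscle, 0.17 for 9 skeletal muscle, 0.14 for 8 adipocyte and 0.17 for 9 glial genes, beside 0.10 for all probe sets. The tumour with the largest Atf3 difference, tumour 3, also had the largest macrophage and T cell differences. The part of these cells in the Atf3 difference was not tested. In bulk RNA, fewer cells of a type and less RNA per cell cannot be told apart.

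**Figure D3:**
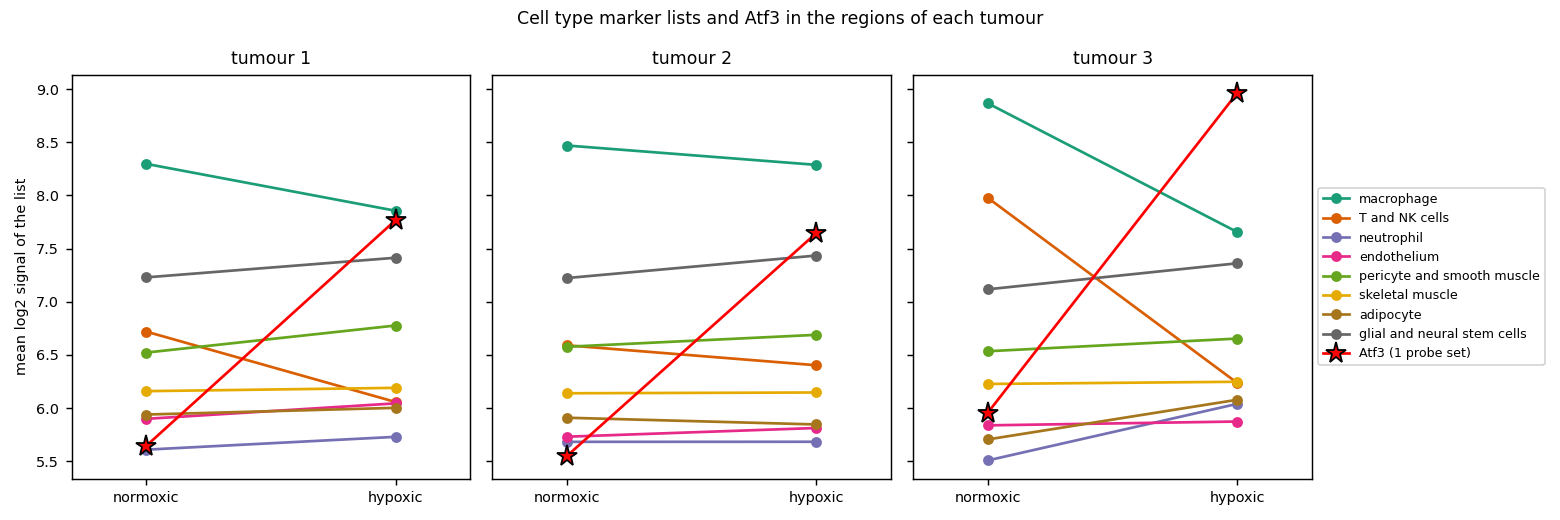
Mean log2 level of each marker list beside the Atf3 level in the normoxic and hypoxic region of each tumour; lines join the regions of a tumour. Macrophage and T and NK cell lists are lower in the hypoxic region of every tumour, Atf3 is higher in every tumour.

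In the 6 h cultures no member passed the test. Limma called 0 of the 10 at an adjusted p below 0.05, 0 at an unadjusted p below 0.05, and 52 of all 27363 probe sets (0.19%, with 0.183% higher and 0.00731% lower). Atf3 was at 5.41, 5.43 and 5.55 in normoxic cultures 6, 13 and 26 and at 5.39, 5.26 and 5.10 in the hypoxic ones. All 6 values lay below the array medians and below the group means of C1qa in the same cultures (5.71 and 5.88), so Atf3 was not shown to be above background. The hypoxic values were lower without overlap. The difference of −0.21 ± 0.11 (SE) had an adjusted p of 0.984 (limma), and its 95% interval ran from −0.46 to 0.03.

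Of the targets, Trib3 had the largest 6 h difference. It was at 7.35, 6.77 and 7.06 in the normoxic and 7.77, 7.66 and 7.35 in the hypoxic cultures, a difference of 0.53 ± 0.39 (SE; adjusted p = 0.984, limma). The groups met at 7.35, and the pairs differed by 0.42, 0.89 and 0.28. The fit takes 1 spread from all 12 cultures. For Trib3 the SD was 0.29 and 0.22 in the normoxic and hypoxic 6 h groups, but 1.12 in the normoxic 16 h group. Ddit3 was higher without overlap, but by only 0.12, and Phgdh was lower without overlap by 0.18. Members without overlap thus numbered 1 higher and 2 lower, beside 5.6% and 3.98% of all probe sets. Atf4 differed by 0.04, with a 95% interval from −0.24 to 0.32. The others ranged from −0.16 for Psat1 to 0.17 for Ppp1r15a.

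After 16 h of hypoxia the mean levels of Ddit3, Ppp1r15a and Trib3 were higher by 0.68 to 0.78. That of Atf3 was lower by 0.20, at a level not shown to be above background. Limma again called 0 of the 10 members at an adjusted p below 0.05, against 193 of 27363 probe sets (0.705%, with 0.603% higher and 0.102% lower), and 4 members had an unadjusted p below 0.05, as did 8.21% of all probe sets. Ddit3 was at 10.79, 11.38 and 10.76 in normoxic cultures 22, 28 and 29 and at 11.48, 12.17 and 11.63 in the hypoxic ones. The groups did not overlap, and hypoxia was higher by 0.78 ± 0.18 (SE; adjusted p = 0.0721, limma). When the fit was blocked on the culture number, the adjusted p was 0.0044, so that Ddit3 passed, and the pairs differed by 0.69, 0.79 and 0.87.

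Ppp1r15a was also higher in each of these pairs. It was at 7.91, 8.45 and 8.04 in the normoxic and 8.64, 9.17 and 8.62 in the hypoxic cultures, without overlap. The difference was 0.68 ± 0.19 (SE; adjusted p = 0.173, limma), and the pairs differed by 0.73, 0.72 and 0.58. Its adjusted p was 0.0655 with the block.

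Trib3 was split by a single array. It was at 6.53, 8.56 and 6.74 in normoxic cultures 22, 28 and 29 and at 7.93, 8.30 and 7.79 in the hypoxic ones. Normoxic culture 28 was above all 3 hypoxic cultures. The difference was 0.73 ± 0.39 (SE; adjusted p = 0.701, limma) over all arrays, and 1.37 (adjusted p = 0.00596, limma) without that array. The array was singled out by its own Trib3 level, and leaving out the highest normoxic value had to enlarge the difference. That p-value is therefore a description and not a test. Without both arrays numbered 28, a setting chosen after the values were seen, the Trib3 difference was 1.22 (adjusted p = 0.0146) and that of Ddit3 0.78 (adjusted p = 0.00933). Without normoxic culture 28 alone, which was also the highest normoxic culture for Ddit3, Ddit3 had an adjusted p of 0.0209 (limma). Ddit3 and Trib3 were the members called in both settings. The 0.705% of all probe sets given above belongs to the fit of all arrays, and the share in these settings is not given here. The calls are therefore not read as a result about the members.

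Normoxic culture 28, singled out by its Trib3 level, was also high in other genes of this response, but no increase was seen in Atf3. Compared with the mean of the other normoxic 16 h cultures, 9 of the 10 members were higher, with Trib3 among them and Phgdh by only 0.01. Over all probe sets 12632 of 27363 were higher. The median log2 difference was 0.37 for the members, against −0.02 over all probe sets. These values come from 1 array and were not tested. Nupr1, a stress-induced chromatin protein that ATF4 is known to drive, was higher by 2.81, the largest of all probe sets. Trib3 was higher by 1.93, and 3 probe sets exceeded it. The cystine transporter gene Slc7a11 was higher by 1.10, Ddit3 by 0.61, and all 13 genes of the tRNA synthetase list by a median of 0.33. The list of eIF2, its kinases, eIF2B and the regulators Ppp1r15b, Oma1 and Dele1 had a median of −0.06, and the ATF6 and XBP1 branch −0.04. Atf3 was lower there by 0.22, at a level below the array median and not shown to be above background.

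**Figure D4:**
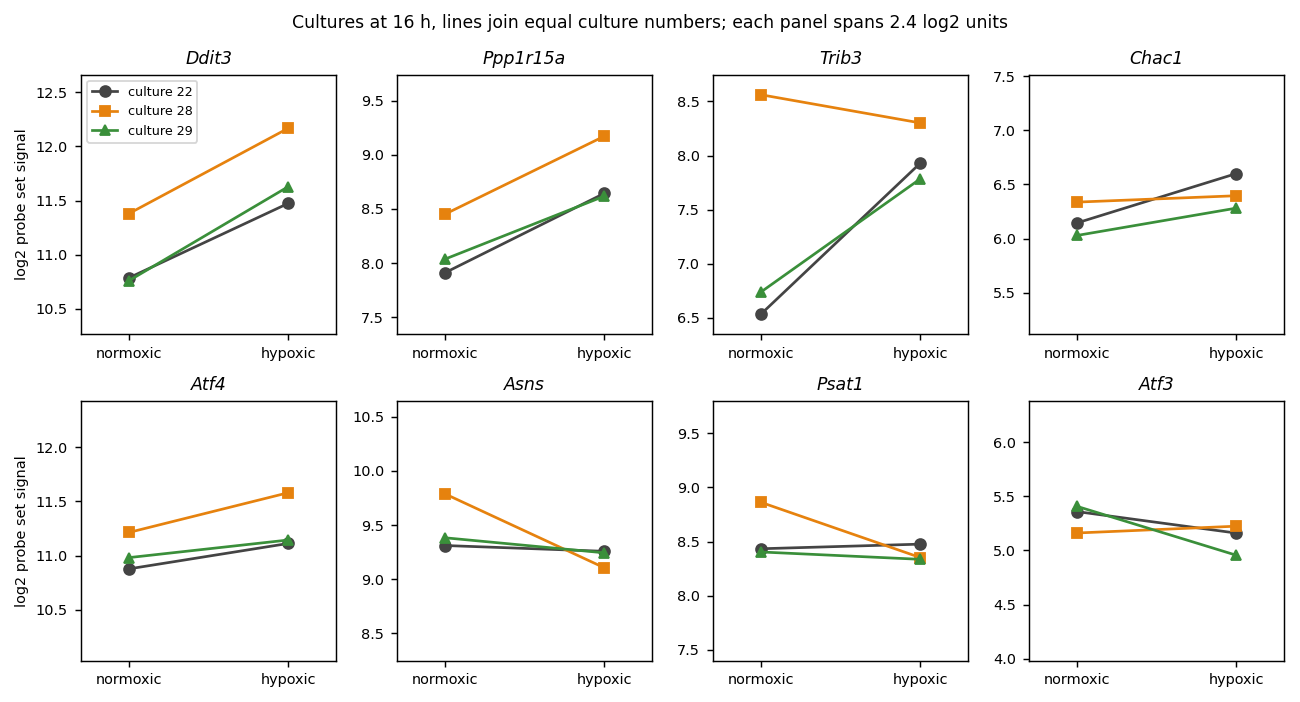
Log2 levels in the 16 h cultures for the members other than Phgdh and Atf5, by culture number (22, 28, 29) and oxygen. Normoxic culture 28 lies above the other two normoxic cultures for Trib3, at 8.56 against 6.53 and 6.74, and for Ddit3, at 11.38 against 10.79 and 10.76.

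The remaining members had smaller differences at 16 h. Atf3 was at 5.36, 5.16 and 5.41 in the normoxic and 5.16, 5.22 and 4.95 in the hypoxic cultures. All of these values lay below the array medians, so Atf3 was not shown to be above background. The groups overlapped, and the difference of −0.20 ± 0.11 (SE; adjusted p = 0.744, limma) had a 95% interval from −0.44 to 0.05. Atf4 differed by 0.26 ± 0.13 (SE; adjusted p = 0.679) and Chac1 by 0.26 ± 0.15 (SE; adjusted p = 0.750). Asns was lower without overlap, by 0.29 (adjusted p = 0.527), as was Phgdh, by 0.28 (adjusted p = 0.496). Psat1 differed by −0.18 and Atf5 by −0.11. Members without overlap numbered 2 higher and 2 lower, beside 6.6% and 8.13% of all probe sets.

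The 16 h response was compared with the 6 h response in the fit of all 12 cultures. Limma called 0 of the 10 members and 0 of all probe sets (0%), with 1 member and 1194 probe sets (4.36%) at an unadjusted p below 0.05. Ddit3 was that member, with a response 0.67 larger at 16 h (adjusted p = 0.982; 95% interval from 0.12 to 1.21). For Atf3 the responses differed by 0.02, with an interval from −0.33 to 0.36.

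Compared directly, the hypoxic cultures had more Ddit3 mRNA at 16 h than at 6 h. The difference was 0.79 ± 0.18 (SE; adjusted p = 0.0331, limma), and Ddit3 was the only 1 of the 10 members called, beside 2.93% of all probe sets (1.33% higher and 1.59% lower). The call ended when hypoxic culture 28 was left out (0.58, adjusted p = 0.104), when any 1 of the 6 h hypoxic cultures was left out, and when the spread was taken from all 18 arrays (adjusted p = 0.372). In the normoxic cultures limma called 0 of the members, 0 at an unadjusted p below 0.05, and 4.86% of all probe sets (2.41% higher and 2.45% lower). The times come from different cultures, so time and culture cannot be told apart.

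The wider pathway was read from 7 lists with 88 genes, 81 of them measured. None of the 81 was called in the tumours by limma, with 13 at an unadjusted p below 0.05, beside 9.12% of all probe sets. At 6 h 1 was called higher (Vldlr), beside 0.183% of all probe sets, and at 16 h 2 (Ddit4 and Ier3), beside 0.603%. None was called lower at either time. With the block the genes called were Ddit4 and Vldlr at 6 h and Ddit4, Fosl1, Herpud1, Ier3 and Vldlr at 16 h. Without normoxic culture 28 the genes called at 16 h were Ddit4, Nupr1 and Vldlr, and without both arrays of that number Ddit4, Ier3 and Nupr1. The shares of all probe sets called in these alternative fits are not given here. The list of eIF2, its kinases, eIF2B and the regulators Ppp1r15b, Oma1 and Dele1 had 14 genes measured. Its medians were −0.04 in the tumours, −0.05 at 6 h and −0.05 at 16 h, beside 0.10, 0.01 and −0.03 over all probe sets. In the tumours its genes ran from −1.01 to 0.68. Without tumour 3 the tumour median of that list was 0.15. Eif2s1, the subunit that is phosphorylated, was lower in tumours 1, 2 and 3 by 0.54, 0.34 and 2.16, with a mean of −1.01 ± 0.37 (SE), and of −0.44 without tumour 3. Oma1, the mitochondrial protease that relays stress to the kinase HRI, was lower by 0.85, 0.19 and 0.97, with a mean of −0.67 ± 0.22 (SE).

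The amino acid branch did not move as a block in the tumours. Of 9 transporters 6 were higher (median 0.02; 0.25 without tumour 3), beside 64.8% of all probe sets, and Slc3a2, the heavy chain shared by several amino acid transporters, was at 7.91, 8.41 and 8.15 in the normoxic and 9.80, 9.16 and 9.06 in the hypoxic regions, higher without overlap by 1.18 ± 0.27 (SE). Its light chain partner Slc7a5 was lower by 0.37 ± 0.19 (SE). Of 11 serine, one-carbon and amino acid enzymes 4 were higher (median −0.04), with Aldh1l2 at −0.78 ± 0.24 (−0.52 without tumour 3) and Mthfd1l at 0.53 ± 0.20 (SE), both enzymes of mitochondrial folate metabolism.

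The tRNA synthetase list differed between the tumours. Of its 13 genes 10 were lower on average (median −0.29), while 64.8% of all probe sets were higher. Without tumour 3 the median was 0.04 and 6 of 13 were lower. The mean over the list was higher in the hypoxic region of tumours 1 and 2, by 0.09 and 0.12, and lower in tumour 3 by 0.71. Nars1, the asparagine tRNA synthetase, differed by −0.10, −0.10 and −1.73, with a mean of −0.65 ± 0.36 (SE). Xpot, which exports tRNA from the nucleus, differed by 1.27, 0.68 and 0.13, with a mean of 0.69 ± 0.26 (SE). In the cultures the lists of transporters, enzymes and synthetases had medians between −0.10 and 0.07, and limma called 0 of their genes at either time. At an unadjusted p below 0.05 there were 2, 1 and 0 of them at 6 h and 2, 1 and 0 at 16 h, in that order. The shares of all probe sets were 5.14% at 6 h and 8.21% at 16 h. The 16 h median of the synthetases was −0.06 over all arrays, 0.05 without normoxic culture 28 and 0.11 without both arrays of that number; those of the transporters were −0.07, 0.02 and 0.16, and those of the enzymes −0.05, 0.09 and −0.01.

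Other genes linked to ATF4 and CHOP included Vldlr and Ddit4, which were called in the cultures. Of 12 measured, 10 were higher in the tumours (median 0.25), 7 at 6 h (0.08) and 11 at 16 h (0.27), beside 64.8%, 54.2% and 42.8% of all probe sets. Vldlr, a lipoprotein receptor, rose at 6 h from 7.01, 7.02 and 7.06 to 7.90, 8.0 and 8.41, a difference of 1.07 ± 0.13 (SE; adjusted p = 0.00205, limma). The call ended with the spread over all 18 arrays (adjusted p = 0.0964). Ddit4, an inhibitor of mTORC1, rose at 16 h from 6.29, 7.08 and 6.49 to 8.44, 9.11 and 7.91, a difference of 1.87 ± 0.26 (SE; adjusted p = 0.00345, limma). Ddit4 was called at 16 h in every alternative run. Both genes are also known to be driven by hypoxia-inducible factors. In tumours 1, 2 and 3 Vldlr differed by 0.27, 1.3 and 0.11, with a mean of 0.56 ± 0.28 (SE), and of 0.19 without tumour 2. Ddit4 differed there by −0.14, −0.23 and 0.68, with a mean of 0.10 ± 0.24 (SE). Nupr1 was lower in the hypoxic region of every tumour, at 8.45, 8.41 and 10.05 in the normoxic and 7.79, 7.58 and 6.92 in the hypoxic regions, by 1.54 ± 0.49 (SE) on average and by 0.74 without tumour 3.

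The parallel arm of the unfolded protein response is run by ATF6 and XBP1. Its 10 measured genes are chaperones and folding enzymes for the most part. In the hypoxic tumour regions 9 were lower (median −0.29), while 10 were higher at 6 h (0.15) and 9 at 16 h (0.32). Of all probe sets 64.8% were higher in the tumours, 54.2% at 6 h and 42.8% at 16 h. The tumour direction rested on tumour 3: the mean over the list differed by 0.06, −0.18 and −0.75 in tumours 1, 2 and 3, and without tumour 3 the median was −0.02 with 5 of 10 lower. At 16 h the mean differed by 0.20, 0.64 and −0.02 in cultures 22, 28 and 29. Limma called 0 of the 10 in the tumours, at 6 h and at 16 h, and 1 at 16 h with the block (Herpud1). At an unadjusted p below 0.05 there were 2 in the tumours, 0 at 6 h and 2 at 16 h. The shares of all probe sets were 9.12%, 5.14% and 8.21%. The difference between the settings was not tested. The 16 h median was 0.09 without both arrays of culture 28, with 7 of 10 genes higher. Both Pdia4 and Hyou1 encode folding proteins of the endoplasmic reticulum. In tumours 1, 2 and 3 Pdia4 differed by −0.92, −0.02 and −1.06 (mean −0.67 ± 0.26, SE) and Hyou1 by −0.03, −0.25 and −1.12 (mean −0.46 ± 0.26, SE).

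AP-1 and immediate early genes, which share signals and binding sites with Atf3, were higher with it in the tumours. Of 12 measured, 11 were higher in the hypoxic regions (median 0.46; 0.29 without tumour 3), beside 64.8% of all probe sets, and 5 of them without overlap, beside 11.8%. Egr1 was at 7.93, 8.70 and 8.16 in the normoxic and 9.99, 10.06 and 9.28 in the hypoxic regions, higher by 1.51 ± 0.24 (SE). Fosl1, a partner of JUN in AP-1, was at 8.03, 8.18 and 8.14 against 9.29, 9.33 and 9.34, higher by 1.21 ± 0.18 (SE). In the cultures the list had medians of 0.09 at 6 h and 0.13 at 16 h. The only call was Ier3 at 16 h, beside 0.603% of all probe sets called higher. With the block Fosl1 was called at 16 h as well. Ier3, an early response gene, rose at 16 h by 1.01 ± 0.20 (SE; adjusted p = 0.0348, limma). That call ended when any array of cultures 22 or 29 or the normoxic array of culture 28 was left out (adjusted p from 0.0828 to 0.177), and with the spread over all 18 arrays (0.112).

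**Figure D5:**
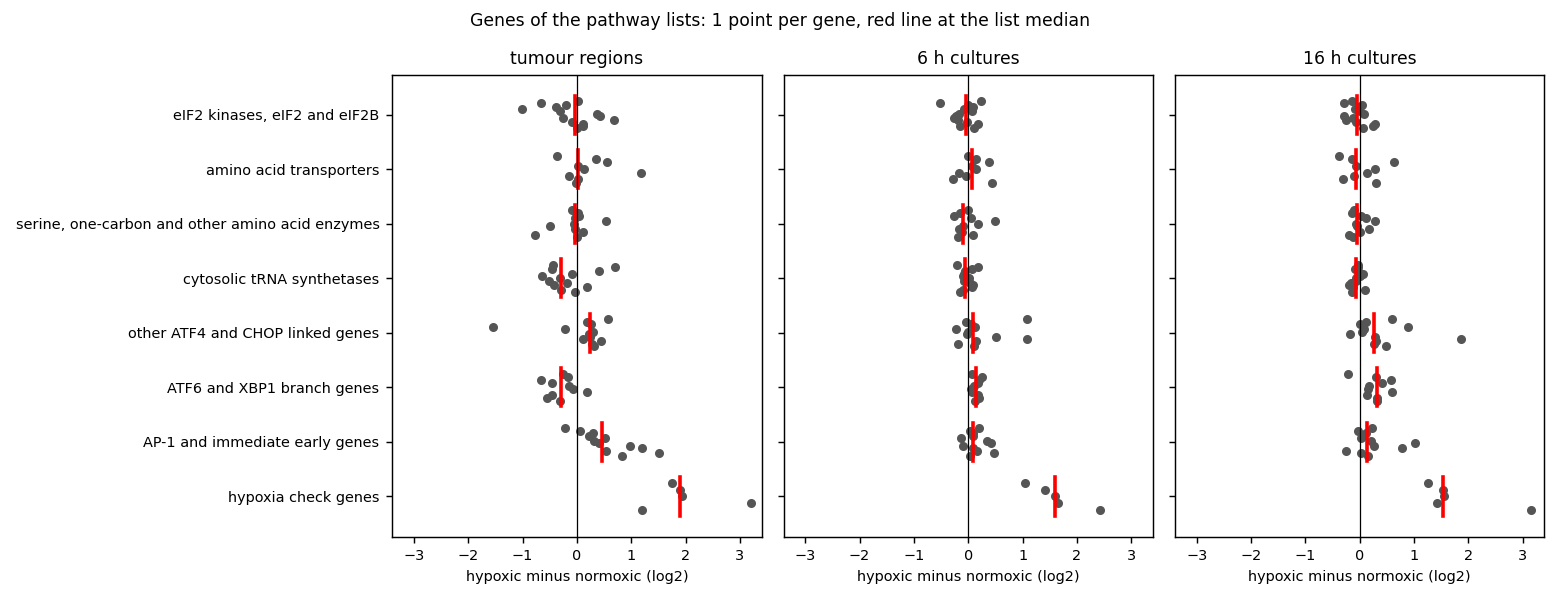
Hypoxic minus normoxic log2 difference of every measured gene (dots) of the 7 pathway lists and of the genes chosen to check the labels. Panels are the tumours, 6 h cultures and 16 h cultures, and bars are list medians. The AP-1 and immediate early list has a median of 0.46 in the tumours, against 0.09 and 0.13 in the cultures.

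The normoxic levels in tumour and dish were compared in the same way. In the fit of all 18 arrays, normoxic tumour regions against all 6 normoxic cultures, 7 of the 10 members were called at an adjusted p below 0.05 by limma, beside 64.3% of all probe sets (43.6% higher and 20.7% lower), so the members' share was near that of all features. The stress genes Chac1 (0.53 higher, adjusted p = 0.00576) and Atf5 (0.88, adjusted p = 0.00182) and the serine enzyme Phgdh (0.59, adjusted p = 0.00165) rose in tumours relative to cultures. Ddit3 (−1.02, adjusted p = 0.0025), Asns (−1.06, adjusted p = 0.000541), Ppp1r15a (−0.75, adjusted p = 0.0345) and Psat1 (−0.68, adjusted p = 0.026) fell. Atf3 differed by 0.33 (adjusted p = 0.179) and Atf4 by −0.42 (adjusted p = 0.0938). Without the normoxic region of tumour 2, Phgdh, Atf5, Ddit3 and Asns were still called. The share of all probe sets called in that fit is not given here.

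These tumour and culture levels depend on scaling, because the median of all probe sets was itself 0.24 higher in the tumours. After centring each array on its median it was −0.07, and after quantile normalization 0.06. Over all probe sets the calls were 11938 higher and 5663 lower as deposited, 4371 and 8487 after centring, and 6032 and 4457 after quantile normalization. Only Phgdh and Atf5 were called after quantile normalization. After centring, Atf5 was called higher and Atf4, Ddit3, Asns, Ppp1r15a and Psat1 lower. Since the captured tissue can hold host cells, cell type and setting cannot be told apart.

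Ordered by group mean, Atf3 was highest in the hypoxic tumour regions (8.13), then in the normoxic tumour regions (5.72), the normoxic 6 h cultures (5.46), the normoxic 16 h cultures (5.31), the hypoxic 6 h cultures (5.25) and the hypoxic 16 h cultures (5.11). The last 3 groups overlapped their neighbours in that order. Ddit3 had another order: it was highest in the hypoxic 16 h cultures (11.76), and its hypoxic tumour regions (10.82) overlapped the normoxic 6 h cultures (10.85). Asns was highest in the normoxic 6 h cultures (9.61) and lowest in the hypoxic tumour regions (7.96).

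The genes whose pattern was most like that of Atf3 were not the other members. Likeness was Pearson's r over the 18 arrays after the mean of each setting (tumours, 6 h cultures, 16 h cultures) was removed. The values share the same arrays, and the tumour difference weighs most in them. The 5 closest of 14323 genes were Vapa (0.92), Nos2 (0.91), Lgals3 (0.91), Tgfbr1 (0.90) and Actn1 (0.88). Their tumour differences ran from 0.73 for Actn1 to 1.23 for Vapa. Ppp1r15a (0.62) ranked 780 and Ddit3 (0.58) ranked 1046, while Atf4 had an r of −0.59. The genes closest to Asns were Cdc26 (0.86), Inpp4b (0.82), Riox2 (0.82), Ivns1abp (0.81) and Zfp398 (0.81).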

How the data were processed

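Per the submitters' processing notes, the authors made the deposited log2 values with RMA, and the software was Partek 6.5b. RMA corrects background and summarises probes on the log2 scale, and differences of dim genes are compressed. The sources do not say whether tumour and culture arrays were normalized together. Genes were named from the platform annotation, in which 15097 of 27363 probe sets had 1 symbol. No sample or column was left out.

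Differences were fitted with limma 3.58.1 (R 4.3.3), p-values adjusted by Benjamini-Hochberg across every probe set, and a threshold of 0.05: tumour regions with the tumour as a block, the 12 cultures in 4 groups, and all 18 arrays in 6 groups for tumour against culture. Each SE is the moderated one of limma, which draws on the spread of all probe sets and can differ from that of the arrays alone. The code was tested on simulated data. Nothing in the labels says that cultures of a group were independent, so p-values measure only the spread between these arrays. Their number limits the precision.

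The members and lists were chosen with earlier results of these data known. Named list genes were up to 3 per list called with the smallest p in each culture response, and the 2 largest tumour differences that had 1 direction in all 3 tumours. Genes most like Atf3 and Asns were limited to 5 each. Deviations from the group means were weakly correlated between normoxic and hypoxic cultures of the same number. The r was 0.13, 0.19 and 0.19 at 6 h and 0.13, 0.19 and 0.31 at 16 h. It exceeded the highest r with another number in every case but culture 6 at 6 h (0.13 against 0.18). The pairing by number is therefore unsure at 6 h, and the labels do not say what the numbers mark. Alternatives covered scaling, a filter on the dimmest 25% of probe sets, the blocks, the spread and leaving out arrays.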

Additional observations from a re-analysis of the deposited data

Results flagged for a closer look

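Atf3 was higher in the hypoxic region of all 3 tumours and lower in the hypoxic culture of all 3 pairs at 6 h. The mean differences, 2.41 and −0.21 on the log2 scale, lie 2.62 apart. The opposite directions drew attention to this result, but Atf3 was not shown to be above background in the cultures: its 6 h values lay below the group means of C1qa, a macrophage gene, in the same cultures (5.71 and 5.88). The difference between the settings was not tested, and the tumour value was known when the gene was chosen.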

How the results depend on the processing

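The replicate block raised the members called at 16 h from 0 to 1 (Ddit3) and changed no other member's call. Without both arrays of culture 28 (added after seeing the data) 2 were called, and leaving out 1 array at a time gave 0 to 2. For hypoxic cultures at 16 h against 6 h, 1 member was called, 0 with the spread over all 18 arrays, and 0 to 1 with 1 array left out. No block could be fitted there, because the numbers differ between times. For normoxic tumour against culture, 7 were called, 2 after quantile normalization, and 4 to 7 with 1 array left out. For fits with the block, the spread over all 18 arrays or arrays left out, the share of all probe sets called is not given here. Those counts therefore describe the settings and are not read as a result about the members. The 16 h gap between Atf3 and the targets, −0.31, was 0.015 against Asns, Psat1 and Phgdh alone. The second Psat1 probe set, which is dim, gave 0.10 in tumour against culture in place of −0.68. The causes were not tested. Of 62 member values that were not called, 26 changed sign in at least 1 alternative, and 1 of the 8 called values did.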
